A study of Mus musculus with 18 samples.

Results

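The 8 genes described here make or desaturate long-chain fatty acids: Acly, Acaca, Fasn, Elovl6, Scd1, Scd2, Fads1 and Fads2. They were chosen by gene name among the protein-coding entries of the expression table and make up 8 of its 23414 genes. Their RNA levels were measured by bulk sequencing in CD8 T cells sorted from mouse spleen cultures. The 18 libraries form 6 groups of 3, given by genotype and treatment, and the study asks how loss of TrIP, the product of Pik3ip1, alters activation and its dependence on PI3K delta. TrIP is a membrane protein that restrains PI3K.

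All mice carried the P14 transgene, a T cell receptor specific for gp33, a peptide antigen of lymphocytic choriomeningitis virus. WT mice were compared with mice labelled as TrIP knockouts (KO), in which the study removed TrIP from CD8 T cells. Every culture ran for 24 h with 50 U/ml of IL-2 plus 2 ng/ml of IL-12, both recombinant. For each genotype the cultures received cytokines alone (at rest below), 100 ng/ml of gp33, or the same dose of peptide together with the PI3K delta inhibitor IC87114 at 10 µM. The shared protocol text speaks of gp33 for every culture, whereas the titles and the treatment entries name it for stimulated groups alone, and the latter were followed. The driver of the knockout (its Cre) is not given in the sources used here, so the cells it reached are known from the labels alone. The labels do not say that the 3 libraries of a group came from separate mice, so the p-values measure the spread between these libraries, which may be technical.

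Cytosolic fatty acid synthesis begins with citrate exported from mitochondria. ATP-citrate lyase (Acly) splits it into acetyl-CoA, acetyl-CoA carboxylase 1 (Acaca) makes malonyl-CoA, and fatty acid synthase (Fasn) builds palmitate, which Elovl6 lengthens to stearate. The stearoyl-CoA desaturases Scd1 and Scd2 place the first double bond in saturated chains, and Fads1 and Fads2 place further double bonds in polyunsaturated chains. Many of these genes are targets of the SREBP transcription factors, which INSIG proteins hold back in the endoplasmic reticulum, and activated T cells raise lipid synthesis as they grow and divide.

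Pik3ip1 itself was higher, not lower, in the libraries labelled KO, with log2 fold changes of 1.27 at rest, 0.57 with gp33 and 1.07 with gp33 and inhibitor (SE 0.08 each; limma adjusted p = 4.33e-08, 8.35e-05 and 1.32e-06). A value per gene does not show which exons were read. Every direction between genotypes below is therefore one between libraries as labelled. The 8 CD8 T cell markers were present in every group, with sums of 824.4 to 2608 normalized units per library. Markers of B cells summed to between 77.63 and 205.3 at rest and to at most 10.19 in stimulated libraries. Replicate 2 of the inhibited WT group stood apart from its group most, with a mean correlation of 0.961 against up to 0.996 in others.

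Values below are normalized values, the deposited numbers read as log2(value + 1) and turned back to a linear scale. A log2 fold change is a difference on the log2(value + 1) scale, which is smaller than the ratio of means for low genes. Levels of different genes were not compared, because the values are not shown to be per length. In bulk libraries, fewer cells that use a gene and less RNA of it per cell cannot be told apart.

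Of the 8 genes, 5 (Scd1, Scd2, Acly, Fasn and Fads1) reached a value of 1 in at least 3 libraries and were tested among 10257 genes. Acly and Fads1 did so only in stimulated WT libraries, Scd2 and Fasn only in stimulated libraries, and Scd1 only in WT libraries at rest or with gp33. Passing the filter was thus itself tied to the groups. Acaca, Fads2 and Elovl6 stayed under it, and their tests come from a fit over all 23414 genes. A gene is said to rise or fall where the Benjamini-Hochberg adjusted p over all genes of the fit was under 0.05.

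**Figure D1:**
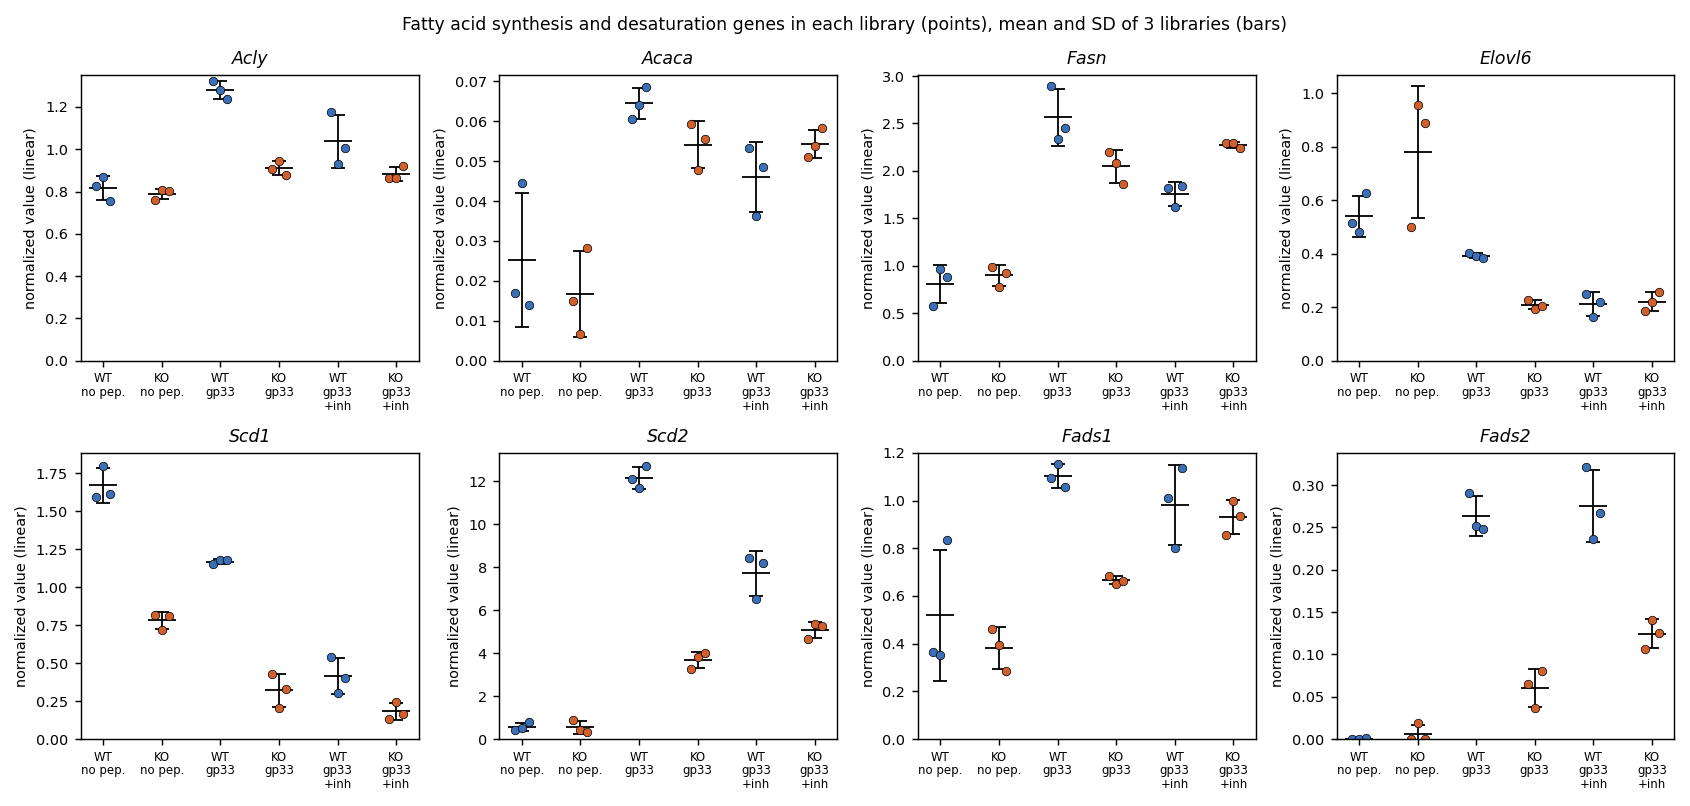
Normalized value of each of the 8 genes in the 18 libraries, with 1 panel per gene, linear axes of different height, points for libraries and bars for group means. The 3 WT gp33 libraries of Scd2 lie between 11.7 and 12.7, above all other libraries, whereas Scd1 is highest in WT at rest (1.59 to 1.8).

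Scd2 had the widest range of the 8 on the fitted scale. At rest its values were 0.411, 0.494 and 0.793 in WT and 0.876, 0.413 and 0.321 in the libraries labelled KO. With gp33 they were 12.1, 11.7 and 12.7 in WT and 3.28, 3.82 and 3.99 in those labelled KO. With gp33 and inhibitor they were 8.44, 6.52 and 8.18 in WT and 4.64, 5.34 and 5.26 in those labelled KO. The resting groups overlapped. Above them the order of the 4 stimulated groups was labelled KO with gp33, labelled KO with inhibitor, WT with inhibitor and WT with gp33, with no overlap between neighbours.

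Scd1, its close relative, was highest at rest, where Scd2 was lowest. At rest its values were 1.59, 1.8 and 1.61 in WT and 0.819, 0.719 and 0.806 in the libraries labelled KO. With gp33 they were 1.15, 1.18 and 1.18 in WT and 0.427, 0.205 and 0.326 in those labelled KO. With inhibitor they were 0.541, 0.306 and 0.401 in WT and 0.135, 0.245 and 0.163 in those labelled KO. WT at rest, WT with gp33 and labelled KO at rest were the 3 highest groups and did not overlap. The 3 lowest groups overlapped their neighbours.

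Because the paralogues are so alike, it matters whether reads can be told apart. Their coding sequences in GENCODE M21, on mouse chromosome 19, were 1065 bases for Scd1 and 1074 for Scd2. In an alignment of 1074 columns 962 were identical (89.6%), with a longest identical run of 147 bases. The 60 bases that differ most, near the start of the coding sequence, are shown to let a reader see where the 2 messages separate. Capitals mark the 24 positions that differ, over coding bases 79 to 138 of Scd1 and 88 to 147 of Scd2.
Scd1: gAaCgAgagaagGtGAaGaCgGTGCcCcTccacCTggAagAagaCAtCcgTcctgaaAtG
Scd2: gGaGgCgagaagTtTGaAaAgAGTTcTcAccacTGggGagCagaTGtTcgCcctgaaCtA
Over the whole transcript, 4.66% of the 50-base words of Scd1 and 4.01% of those of Scd2 also occur in another gene. How the authors divided such reads is not given in the sources used here, and the values of both genes carry that limit.

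Acly, which supplies cytosolic acetyl-CoA, varied little. Its values at rest were 0.826, 0.867 and 0.757 in WT and 0.762, 0.805 and 0.801 in the libraries labelled KO. With gp33 they were 1.33, 1.28 and 1.24 in WT and 0.905, 0.946 and 0.88 in those labelled KO. Under the inhibitor they were 1.17, 0.932 and 1 in WT and 0.866, 0.863 and 0.923 in those labelled KO. The WT gp33 group alone stood clear of its neighbour in level, and all other neighbouring groups overlapped.

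Fasn, the synthase itself, had values at rest of 0.58, 0.966 and 0.884 in WT and 0.99, 0.78 and 0.924 in the libraries labelled KO. With gp33 they were 2.9, 2.34 and 2.45 in WT and 2.2, 2.09 and 1.86 in those labelled KO. In inhibited cultures they were 1.82, 1.62 and 1.84 in WT and 2.29, 2.3 and 2.24 in those labelled KO. The resting groups overlapped, and the stimulated groups followed without overlap in the order WT with inhibitor, labelled KO with gp33, labelled KO with inhibitor and WT with gp33. Acaca, the carboxylase, was low throughout, from 0.0068 to 0.0685, and 52.6% of its 50-base words also occur in the processed pseudogene Gm5182, so its values are uncertain.

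Fads1, the delta-5 desaturase, had group means of 0.519 ± 0.274 in WT and 0.381 ± 0.0888 in the libraries labelled KO at rest (SD, n = 3). With gp33 its values were 1.1, 1.16 and 1.06 in WT and 0.684, 0.652 and 0.664 in those labelled KO. With inhibitor they were 1.01, 0.802 and 1.14 in WT and 0.856, 0.997 and 0.937 in those labelled KO. Among neighbours in level, only labelled KO with gp33 and labelled KO with inhibitor did not overlap. WT replicate 3 at rest, at 0.835, was more than double the other 2 WT libraries at rest (0.366 and 0.354).

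Fads2, the delta-6 desaturase that acts before Fads1, was listed at 0 in 4 of the 6 resting libraries and at 0.00143 and 0.0184 in the other two. With gp33 its values were 0.29, 0.251 and 0.249 in WT and 0.0645, 0.0366 and 0.0798 in the libraries labelled KO. Under the inhibitor they were 0.322, 0.237 and 0.267 in WT and 0.107, 0.141 and 0.126 in those labelled KO. The WT stimulated groups overlapped each other and lay above both stimulated groups labelled KO, which did not overlap each other. No fold against rest is given, because resting libraries are listed at 0.

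Elovl6, which turns palmitate into stearate, was highest at rest, at 0.514, 0.48 and 0.626 in WT and 0.5, 0.956 and 0.888 in the libraries labelled KO. With gp33 its values were 0.403, 0.392 and 0.386 in WT and 0.227, 0.195 and 0.204 in those labelled KO. In inhibited cultures they were 0.251, 0.162 and 0.219 in WT and 0.187, 0.22 and 0.257 in those labelled KO. The 3 lowest groups, both inhibited groups and labelled KO with gp33, overlapped. WT with gp33 lay above them and below both resting groups without overlap. Of its 50-base words 4.4% also occur in other genes, 191 in number.

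The comparison of gp33 with rest asks what antigen does to the pathway in each genotype. In WT, 6 of the 8 genes rose (Scd2, Fasn, Fads1, Acly, Fads2 and Acaca), Scd1 fell, and Elovl6 did not pass the test. Scd2 rose most, by 3.08 on the log2 scale (SE 0.13; limma adjusted p = 3.95e-11), a 21.5-fold ratio of means. Fasn rose by 0.98 (SE 0.09; adjusted p = 1.14e-07), Fads1 by 0.48 (adjusted p = 0.000597) and Acly by 0.33 (adjusted p = 8.01e-05). Fads2 rose by 0.34 (adjusted p = 6.52e-08) and Acaca by 0.05 (adjusted p = 0.000835), and Scd1 fell by 0.30 (SE 0.08; adjusted p = 0.00245). Ratios of means were 3.165-fold for Fasn, 2.13-fold for Fads1, 1.57-fold for Acly and 2.57-fold for Acaca. The offset of 1 makes the log2 fold change of a gene as low as Acaca small. Activation moved most genes: 42.1% of the 10257 tested rose and 31.6% fell, and 25.7% rose in the fit over all genes. For all 8 members the 3 gp33 libraries lay clear of the 3 at rest, 6 above and 2 below, where 32% and 28.9% of all genes did so. The median log2 fold change was 0.33 over the 8 members and 0.00 over all 23414 genes. A pseudocount of 0.1 in place of 1 ended the Scd1 call (-0.48, adjusted p = 0.0527), and Elovl6 passed as lower without replicate 1 of the resting group labelled KO (0.00913).

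In the libraries labelled KO, 5 of the 8 rose with gp33 (Scd2, Fasn, Fads1, Fads2 and Acaca), and Scd1 and Elovl6 fell. Scd2 rose by 1.63 (SE 0.13; limma adjusted p = 5.12e-08), a 6.9-fold ratio of means, and Fasn by 0.68 (SE 0.09; adjusted p = 6.71e-06). Fads1 rose by 0.27 (adjusted p = 0.0279), Fads2 by 0.08 (adjusted p = 0.0234) and Acaca by 0.05 (adjusted p = 0.00128). Ratios of means were 2.28-fold for Fasn, 1.75-fold for Fads1 and 3.26-fold for Acaca. Elovl6 fell by 0.55 (SE 0.08; adjusted p = 3.46e-05), a mean 3.74-fold higher at rest, and Scd1 fell by 0.44 (adjusted p = 0.000123). Acly had a log2 fold change of 0.09 (adjusted p = 0.143). Among the genes tested 41.1% rose and 27.3% fell, against 27.6% and 21.2% in the fit over all genes. All 8 members again had non-overlapping libraries, 6 higher and 2 lower with gp33, as did 32.9% and 23.6% of all genes. The Fads1 call was lost without replicate 1, 2 or 3 with gp33 or replicate 3 at rest (adjusted p from 0.0532 to 0.102), and the Fads2 call without replicates 1 or 3 of either group (0.0615 to 0.0948). With protein-coding genes rescaled alone, which moved the median of all genes by 0.11, Acly passed too (0.16, adjusted p = 0.0117). B cell markers moved with treatment in both genotypes, as given above, and their part in these results was not tested.

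The 2 responses were then compared directly, as the difference between the change in libraries labelled KO and the change in WT. It passed the test for 4 of the 8 genes, all toward a smaller rise or a larger fall in the libraries labelled KO. Scd2 differed by -1.45 (SE 0.19; limma adjusted p = 8.34e-05): its mean gained 11.6 normalized units with gp33 in WT and 3.16 in those labelled KO. Fads2 differed by -0.26 (SE 0.04; adjusted p = 0.000243), Elovl6 by -0.41 (SE 0.11; adjusted p = 0.0188) and Acly by -0.23 (SE 0.08; adjusted p = 0.0409). Fasn (-0.30, adjusted p = 0.0962), Fads1 (-0.21, 0.308), Scd1 (-0.14, 0.375) and Acaca (0.948) did not pass. Differences in this direction were called in 9.6% of the genes tested and 5.28% of all genes, and in the other direction in 15.7% of those tested. The Acly call was lost when any of 15 libraries was left out (adjusted p from 0.0518 to 0.0861), so it held only without replicate 1 or 2 of inhibited WT or replicate 2 of resting WT. It was lost, and so was that of Elovl6, when the 4 groups were fitted alone (adjusted p = 0.0534 and 0.0549), that of Acly also with a pseudocount of 0.1 (0.0553) or protein-coding genes rescaled alone (0.0631), and Fads1 passed without replicate 3 of resting WT (-0.36, adjusted p = 0.0256).

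**Figure D2:**
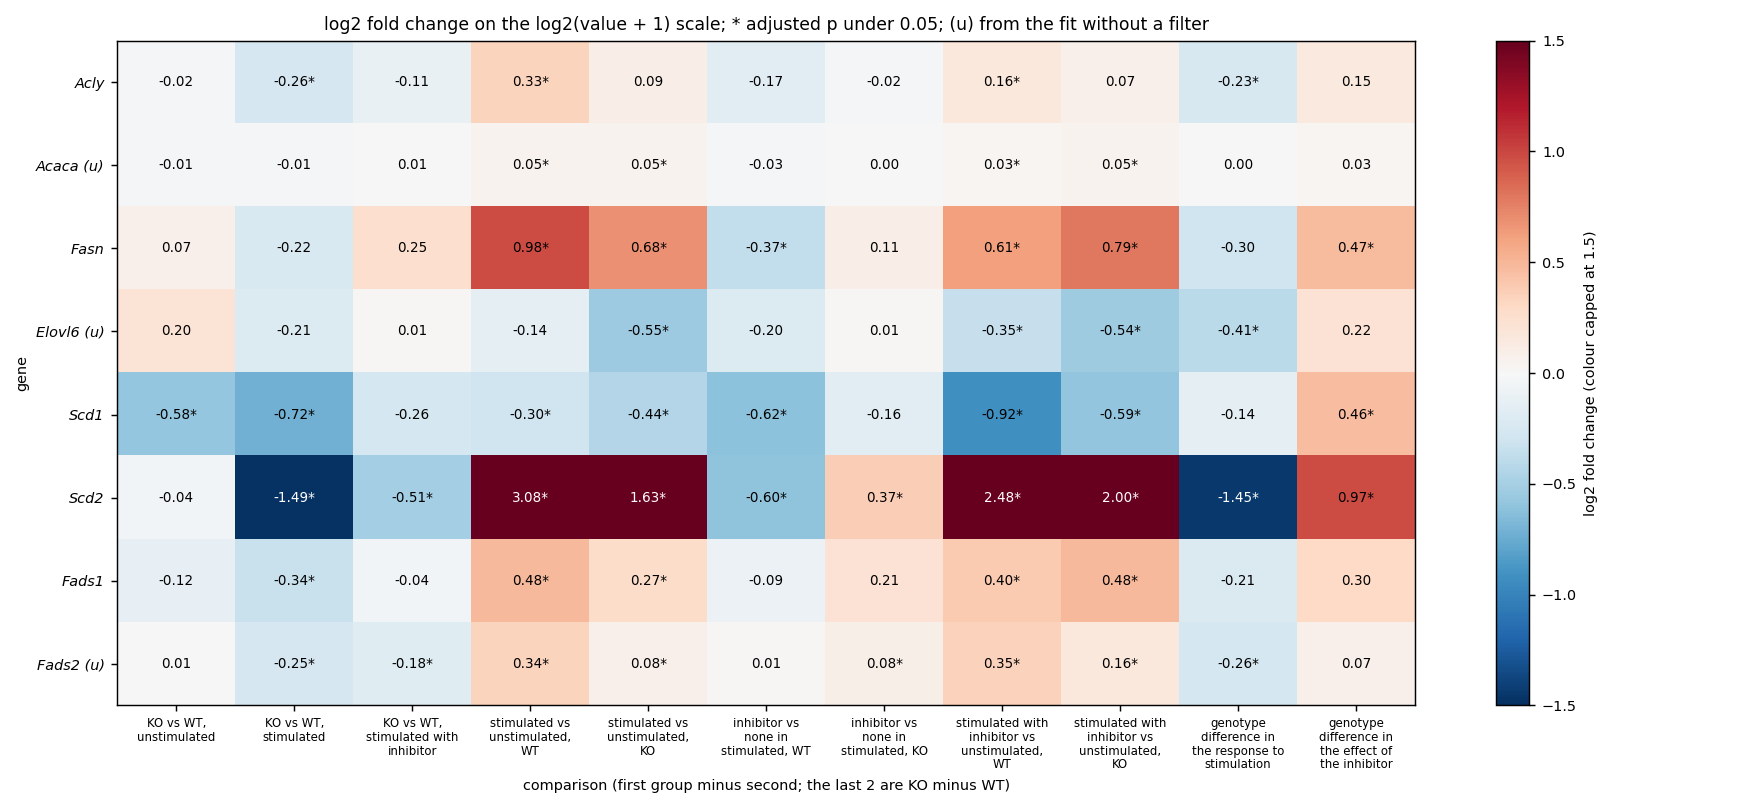
Log2 fold change of each of the 8 genes (vertical) in the 11 comparisons (horizontal) on the log2(value + 1) scale, coloured from blue (lower in the first group) to red (higher), with an asterisk at an adjusted p under 0.05 and (u) for genes from the fit without a filter. Scd2 has the largest values, 3.08 for gp33 in WT and -1.49 between genotypes with gp33.

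With gp33, all 8 genes were lower in the libraries labelled KO than in WT without any overlap, and the fall passed the test for 5. This comparison asks how the genotypes differ once antigen is present. Lower values without overlap were found in 15.1% of all genes, and calls for lower values in 9.09% of the genes tested and 4.47% of all genes. Scd2 was lower by -1.49 on the log2 scale (SE 0.13; limma adjusted p = 1.72e-06), a WT mean 3.29-fold higher. Scd1 was lower by -0.72 (SE 0.08; adjusted p = 8.39e-06; 3.66-fold higher in WT), and Fads2 by -0.25 (SE 0.03; adjusted p = 1.16e-05; 4.37-fold). Acly (-0.26, SE 0.06, adjusted p = 0.00366) and Fads1 (-0.34, SE 0.10, adjusted p = 0.0275) had WT means 1.41-fold and 1.66-fold higher. Scd1, Acly and Fads1 passed the filter through WT libraries alone, which limits a comparison with the share of genes tested. In the fit over all genes their adjusted p was 7.42e-06, 0.00147 and 0.0341. Fasn (-0.22, adjusted p = 0.0824), Elovl6 (-0.21, 0.0895) and Acaca (-0.01, 0.497) did not pass. The median over the 8 was -0.25, against 0.01 over all 23414 genes.

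The Fads1 call between genotypes rested on every library compared, since leaving out any of the 6 ended it (limma adjusted p from 0.0594 to 0.0879), as did a pseudocount of 0.1 (0.0593). Elovl6 passed with a pseudocount of 0.1 (-0.68, adjusted p = 0.022), with the 2 groups fitted alone (0.00595) and without replicate 1 of the resting group labelled KO (0.00351), and without replicate 1 of resting WT so did Fasn (0.0424). Markers of other cells moved with the same contrast. The 10 myeloid and dendritic markers in the table summed to 108.4 to 145.6 in the gp33 libraries labelled KO and to 37.98 to 48.73 in WT. Most of that was Cst3, with means of 112.1 and 42.35, while Csf1r, Itgam, Itgax and Adgre1 had means under 0.1 in both groups. Lyz2 (means of 4.122 and 1.101), Cd14 (3.465 and 0.4114) and S100a8 (3.197 and 0.01276) were also higher in those labelled KO, without overlap. The 6 NK cell markers summed to 2.304 to 2.88 against 0.2636 to 0.6156. Most of that was Fcer1g (means of 1.063 and 0.2157), Tyrobp (0.7717 and 0.1441) and Klre1 (0.7676 and 0.09646). Ncr1 had a mean of 0.008611 in those labelled KO and was at 0 in WT, and Klra8 was at 0 in both groups. Their part in the genotype difference was not tested.

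At rest the genotypes differed in Scd1 alone among the 8. Scd1 was lower by -0.58 in the libraries labelled KO (SE 0.08; limma adjusted p = 9.44e-05), with a WT mean 2.14-fold higher and no overlap. Calls for lower values were made in 7.23% of the genes tested and for higher values in 5.69%, and lower values without overlap were found in 11% of all genes. Scd1 passed the filter through WT libraries alone, which limits a comparison with the share of genes tested. In the fit over all genes its limma adjusted p was 7.57e-05. The other 7 genes lay within -0.12 (Fads1, adjusted p = 0.506) and 0.20 (Elovl6, adjusted p = 0.117), and Scd2 was at -0.04 (adjusted p = 0.909). Without replicate 1 of the resting group labelled KO, Elovl6 passed as higher (0.32, adjusted p = 0.000484). The Scd1 call held without any single library. Myeloid and dendritic markers summed to 132.4 to 212.8 in these libraries labelled KO and 62.24 to 86.39 in WT, and B cell markers to 77.63 to 132.6 and 169.8 to 205.3. NK cell markers summed to 13.23 to 15.26 and 2.821 to 3.76, and the 4 erythroid markers in the table to 3.524 to 10.3 and 0.224 to 0.6261. Most of the NK cell sum was Fcer1g (means of 6.224 and 1.273) and Tyrobp (6.149 and 1.289). Klrb1c, of the same list, had a lower mean in those labelled KO (0.2615 and 0.4343). Their part in this result was not tested.

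The inhibitor comparison asks which of the gp33 levels depend on PI3K delta. In WT it lowered Scd1, Scd2 and Fasn. Scd1 fell by 0.62 on the log2 scale (SE 0.08; limma adjusted p = 0.000128), with a mean 2.81-fold higher without inhibitor. Scd2 fell by 0.60 (SE 0.13; adjusted p = 0.0116; 1.58-fold) and Fasn by 0.37 (SE 0.09; adjusted p = 0.0187; 1.46-fold). Acly (-0.17, adjusted p = 0.082), Elovl6 (-0.20, 0.184), Fads1 (-0.09, 0.622), Acaca (-0.03, 0.273) and Fads2 (0.01, 0.959) did not pass. For 6 genes, all but Fads1 and Fads2, the inhibited libraries lay below the others without overlap, as did 16.4% of all genes. Among genes tested 5.15% fell and 3.31% rose. Scd1 passed the filter only through WT libraries without inhibitor, which limits a comparison with these shares. In the fit over all genes the limma adjusted p was 0.000142 for Scd1, 0.0198 for Scd2 and 0.0251 for Fasn. The Fasn call was lost without replicate 1 of WT with gp33 (-0.30, adjusted p = 0.0987), and fitting the 2 groups alone ended those of Scd2 and Fasn (adjusted p = 0.0702 and 0.115), as did a pseudocount of 0.1 (0.135 and 0.0515). Acly passed without replicate 1 of inhibited WT (adjusted p = 0.0365) or with protein-coding genes rescaled alone (0.0339), and Elovl6 without replicate 1 of the resting group labelled KO (0.0131).

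In the libraries labelled KO the inhibitor raised 2 of the 8 and lowered 0, although Scd1 passed as lower with protein-coding genes rescaled alone (-0.18, limma adjusted p = 0.0459). Scd2 rose by 0.37 among the genes over the filter (SE 0.13; adjusted p = 0.0494), but did not pass in the fit over all genes (0.0693), in which Fads2 rose by 0.08 (SE 0.03; adjusted p = 0.0308). Scd2, Fasn, Fads1 and Fads2 were higher with inhibitor without overlap, as were 13.7% of all genes. Calls for a rise were made in 9.17% of the genes tested and 4.12% of all genes, and for a fall in 19.3% of those tested. Scd1 was at -0.16 (adjusted p = 0.142), Fasn at 0.11 (0.414) and Fads1 at 0.21 (0.144). Both calls depended on single libraries. That of Scd2 was lost without any of the 6 libraries compared (adjusted p from 0.0628 to 0.162) and without 7 others, namely replicate 2 of either resting group, any WT gp33 library or replicate 1 or 3 of inhibited WT (0.0515 to 0.0626), and with a pseudocount of 0.1 (0.22). That of Fads2 was lost without replicate 1 or 2 with gp33 or replicate 2 or 3 with inhibitor (0.0638 to 0.139), and Fads1 passed without replicate 3 of resting WT (0.0353) and with the 2 groups fitted alone (0.0147). Markers of other cells moved in both directions with inhibitor. Myeloid and dendritic sums were 59.98 to 96.48 with it and 108.4 to 145.6 without, and B cell sums 3.332 to 4.635 and 6.52 to 10.19. Cst3 had means of 53.34 with it and 112.1 without. Lyz2, of the same list, was higher with it (means of 17.92 and 4.122), and the mean erythroid sums were 3.285 and 0.5023. The part of these markers in the result was not tested.

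The effect of the inhibitor differed between genotypes for Scd2, Fasn and Scd1, in each case as a more positive change in the libraries labelled KO. The difference was 0.97 for Scd2 (SE 0.19; limma adjusted p = 0.00476), 0.47 for Fasn (SE 0.12; adjusted p = 0.0279) and 0.46 for Scd1 (SE 0.11; adjusted p = 0.0143). Scd1 started from a mean of 0.319 with gp33 in those labelled KO and 1.17 in WT. Even its complete loss there would be smaller on this scale than the WT fall of 0.62, so the starting levels fixed the sign. Its mean was 1.76-fold higher without inhibitor in those labelled KO and 2.81-fold in WT. Differences in this direction were called in 3.27% of the genes tested and in the other in 6.47%. In the fit over all genes the limma adjusted p was 0.00688 for Scd2, 0.0319 for Fasn and 0.0117 for Scd1, which passed the filter through WT libraries alone. The other 5 genes ranged from 0.03 (Acaca, adjusted p = 0.435) to 0.30 (Fads1, adjusted p = 0.212). The Fasn call was lost without replicate 2 or 3 with gp33 or any inhibited library of those labelled KO, or without replicate 1 or 3 of WT with gp33 (adjusted p from 0.0516 to 0.0722). A pseudocount of 0.1 in place of 1 ended all 3 calls (adjusted p = 0.0744 for Scd2, 0.0714 for Fasn and 0.131 for Scd1). This difference and that in the response to gp33 share both gp33 groups.

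**Figure D3:**
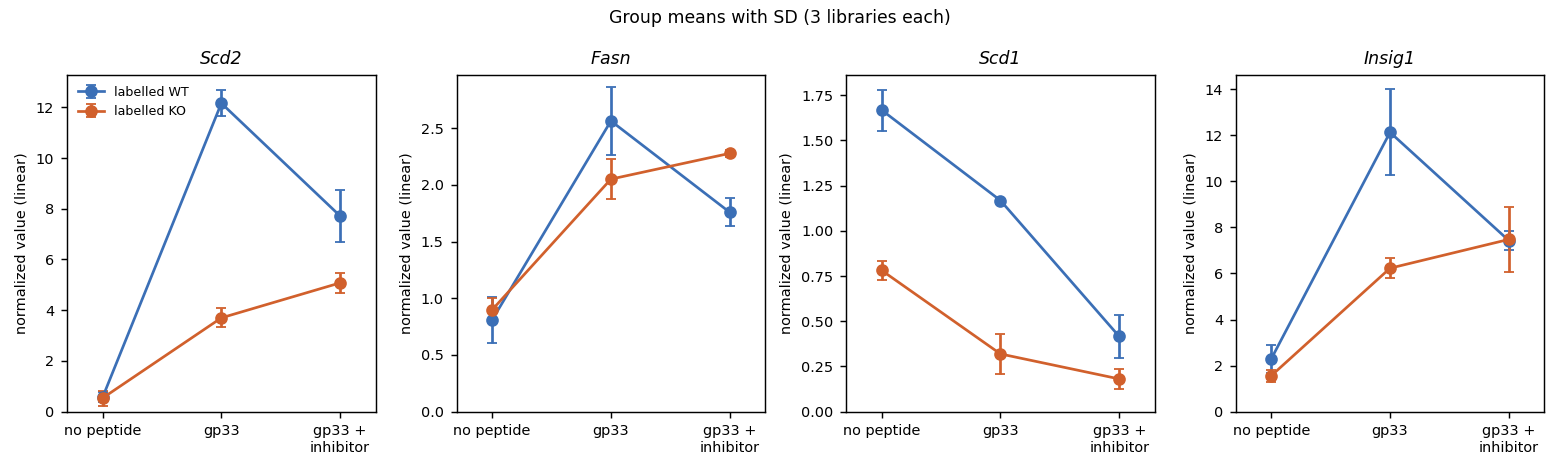
Group means with SD (n = 3) of the normalized value of Scd2, Fasn, Scd1 and Insig1 at rest, with gp33 and with gp33 and inhibitor, WT in blue and labelled KO in orange, on linear axes. Scd2 means with gp33 are 12.2 in WT and 3.7 in the libraries labelled KO, and with inhibitor 7.71 and 5.08.

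The genotypes were also compared with gp33 and inhibitor, where 2 of the 8 genes passed the test. Scd2 (-0.51, SE 0.13, limma adjusted p = 0.04; WT mean 1.52-fold higher) and Fads2 (-0.18, adjusted p = 0.00136; 2.21-fold) were lower in the libraries labelled KO. Lower values were called in 2.61% of the genes tested and 1.29% of all genes, and higher values in 2.01% of those tested. Scd1, Scd2, Acly and Fads2 were lower and Fasn higher in the libraries labelled KO without overlap, which 11.2% and 12% of all genes were. Fasn, at 2.28 ± 0.033 against 1.76 ± 0.125 (SD, n = 3), had a log2 fold change of 0.25 (adjusted p = 0.144), and Scd1 of -0.26 (adjusted p = 0.0704). The Scd2 call was lost without any inhibited library labelled KO (adjusted p = 0.163, 0.0914 and 0.0952), without replicate 1 or 3 of inhibited WT (0.0933 and 0.0925), and without replicate 2 or 3 of those labelled KO with gp33 or any WT gp33 library (lowest 0.0536). Fitting the 2 groups alone ended both calls (0.143 for Scd2 and 0.122 for Fads2), and that of Scd2 also ended with a pseudocount of 0.1 (0.239) and in the fit over all genes (0.067), which called Fads2. Scd1 passed without replicate 2 of inhibited WT (-0.32, 0.0364), with a pseudocount of 0.1 (-0.87, 0.0283) and with protein-coding genes rescaled alone (0.0244). Myeloid and dendritic markers summed to 59.98 to 96.48 in those labelled KO and 48.51 to 65.23 in WT. B cell markers summed to 3.332 to 4.635 and 5.553 to 9.249, NK cell markers to 1.095 to 3.376 and 0.1356 to 1.188, and erythroid markers to 0.7766 to 7.9 and 0.1903 to 0.6354. The part of these markers was not tested.

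Set against rest, all 8 genes changed in the inhibited WT cultures and 7 of 8 in those labelled KO. In WT, Scd2 (2.48), Fasn (0.61), Fads1 (0.40), Fads2 (0.35), Acly (0.16) and Acaca (0.03) rose, and Scd1 (-0.92) and Elovl6 (-0.35) fell. Of the genes tested 39.6% rose and 33% fell, and of all genes 22.7% and 27.4%. In the libraries labelled KO, Scd2 (2.00), Fasn (0.79), Fads1 (0.48), Fads2 (0.16) and Acaca (0.05) rose, Scd1 (-0.59) and Elovl6 (-0.54) fell, and Acly was at 0.07 (limma adjusted p = 0.242). The shares there were 39.6% and 30.9% of the genes tested and 21.8% and 25.9% of all genes. In WT the Acly call was lost without replicate 1 of inhibited WT (adjusted p = 0.0886) or replicate 3 at rest (0.0556), and the Acaca call without 8 of the libraries (0.0507 to 0.161). With the 2 groups fitted alone, the calls of Acly (0.164), Fads1 (0.0665) and Acaca (0.178) ended in WT, that of Acaca also with a pseudocount of 0.1 (0.0535). These comparisons share their resting libraries with those of gp33 alone.

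Genes around the pathway were described by 6 lists: carbon supply and reducing power, other elongases and desaturases, acyl-CoA synthetases and lipid assembly, SREBP, LXR and ChREBP regulators, fatty acid oxidation and uptake, and mitochondrial fatty acid synthesis. Their counts stand beside the shares of all genes tested, of which 42.1% rose and 31.6% fell with gp33 in WT, and 41.1% and 27.3% in the libraries labelled KO. With gp33 in WT, 7 of 9 tested genes of carbon supply rose and 0 fell, among them Slc25a1, the mitochondrial citrate carrier (2.49), and Pgd, an NADPH-forming enzyme of the pentose phosphate pathway (0.97). Lipid assembly rose in 5 of 6, with Agpat5, an acyltransferase of phosphatidic acid synthesis, at 1.37, and mitochondrial synthesis in 5 of 6, with Ndufab1, its acyl carrier protein, at 1.64. Elongation rose in 4 of 6 and fell in 1, with Elovl1 at 1.13 and Elovl5 at -0.77. Of 10 regulators 2 rose and 6 fell, with Insig1 at 2.00 and Mylip, which targets the LDL receptor, at -1.22. Oxidation and uptake rose in 4 of 15 and fell in 5, with Fabp5, a fatty acid carrier, at 3.78 and Lipa, lysosomal acid lipase, at -1.47. In the libraries labelled KO the counts of rises and falls were 7 and 0 for carbon supply, 4 and 1 for elongation, 4 and 1 for assembly, 3 and 4 for regulators, 7 and 4 for oxidation, and 6 and 0 for mitochondrial synthesis.

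Between genotypes with gp33, genes of these lists were called in both directions. Higher values were called in 14.9% of the genes tested, beside the 9.09% lower. Slc25a1 was the 1 carbon supply gene of 9 that differed, lower by -0.83 in the libraries labelled KO (SE 0.15; limma adjusted p = 0.00128). Its mean was 14.6 ± 1.42 there and 26.7 ± 1.88 in WT (SD, n = 3). Among 6 elongation genes, Tecr, the last reductase of the elongation cycle, was lower (-0.59, adjusted p = 0.000951) and Degs1, a ceramide desaturase, higher (0.45, adjusted p = 0.0176). Among 10 regulators, Insig1 was lower (-0.85, SE 0.15, adjusted p = 0.00076), and Nr1h2, which encodes LXR beta (0.54, adjusted p = 0.00891), and Insig2 (0.29, adjusted p = 0.0175) were higher. Srebf2, a SREBP gene, was at -0.11 (adjusted p = 0.213).

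Oxidation and uptake had 4 of 15 genes higher and 1 lower in the gp33 libraries labelled KO. Acadm, a medium-chain acyl-CoA dehydrogenase (0.38, limma adjusted p = 0.000682), Slc25a20, the carnitine carrier (0.47, adjusted p = 0.00211), Etfdh, an electron acceptor of beta-oxidation (0.45, adjusted p = 0.00424) and Lipa (0.25, adjusted p = 0.031) were higher. Fabp5 was lower (-0.88, adjusted p = 0.0162). Fabp5 and Lipa fell outside the rule for naming genes and were chosen after their values were seen. Plin2, which coats lipid droplets, was the 1 gene of 6 in lipid assembly that differed, and was higher (0.49, adjusted p = 0.00024), and 0 of 6 in mitochondrial synthesis passed. List medians were -0.19 for carbon supply, 0.02 for elongation, 0.15 for assembly, 0.06 for regulators and 0.10 for oxidation, against 0.00 over all genes tested. A pseudocount of 0.1 ended the Fabp5 call (0.0563). Leaving out replicate 2 labelled KO with gp33 ended the calls of Nr1h2 (adjusted p = 0.0556), Insig2 (0.101), Fabp5 (0.0785) and Lipa, and replicate 3 of WT with gp33 those of Degs1 (0.0591), Insig2 (0.0694), Fabp5 (0.0638) and Lipa. The calls of Insig2 (0.0617), Fabp5 (0.0531) and Lipa also ended without replicate 2 of WT with gp33, of Degs1 without replicate 1 labelled KO (0.0512), and of Lipa without replicate 3 labelled KO, with adjusted p from 0.0651 to 0.158 for Lipa.

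**Figure D4:**
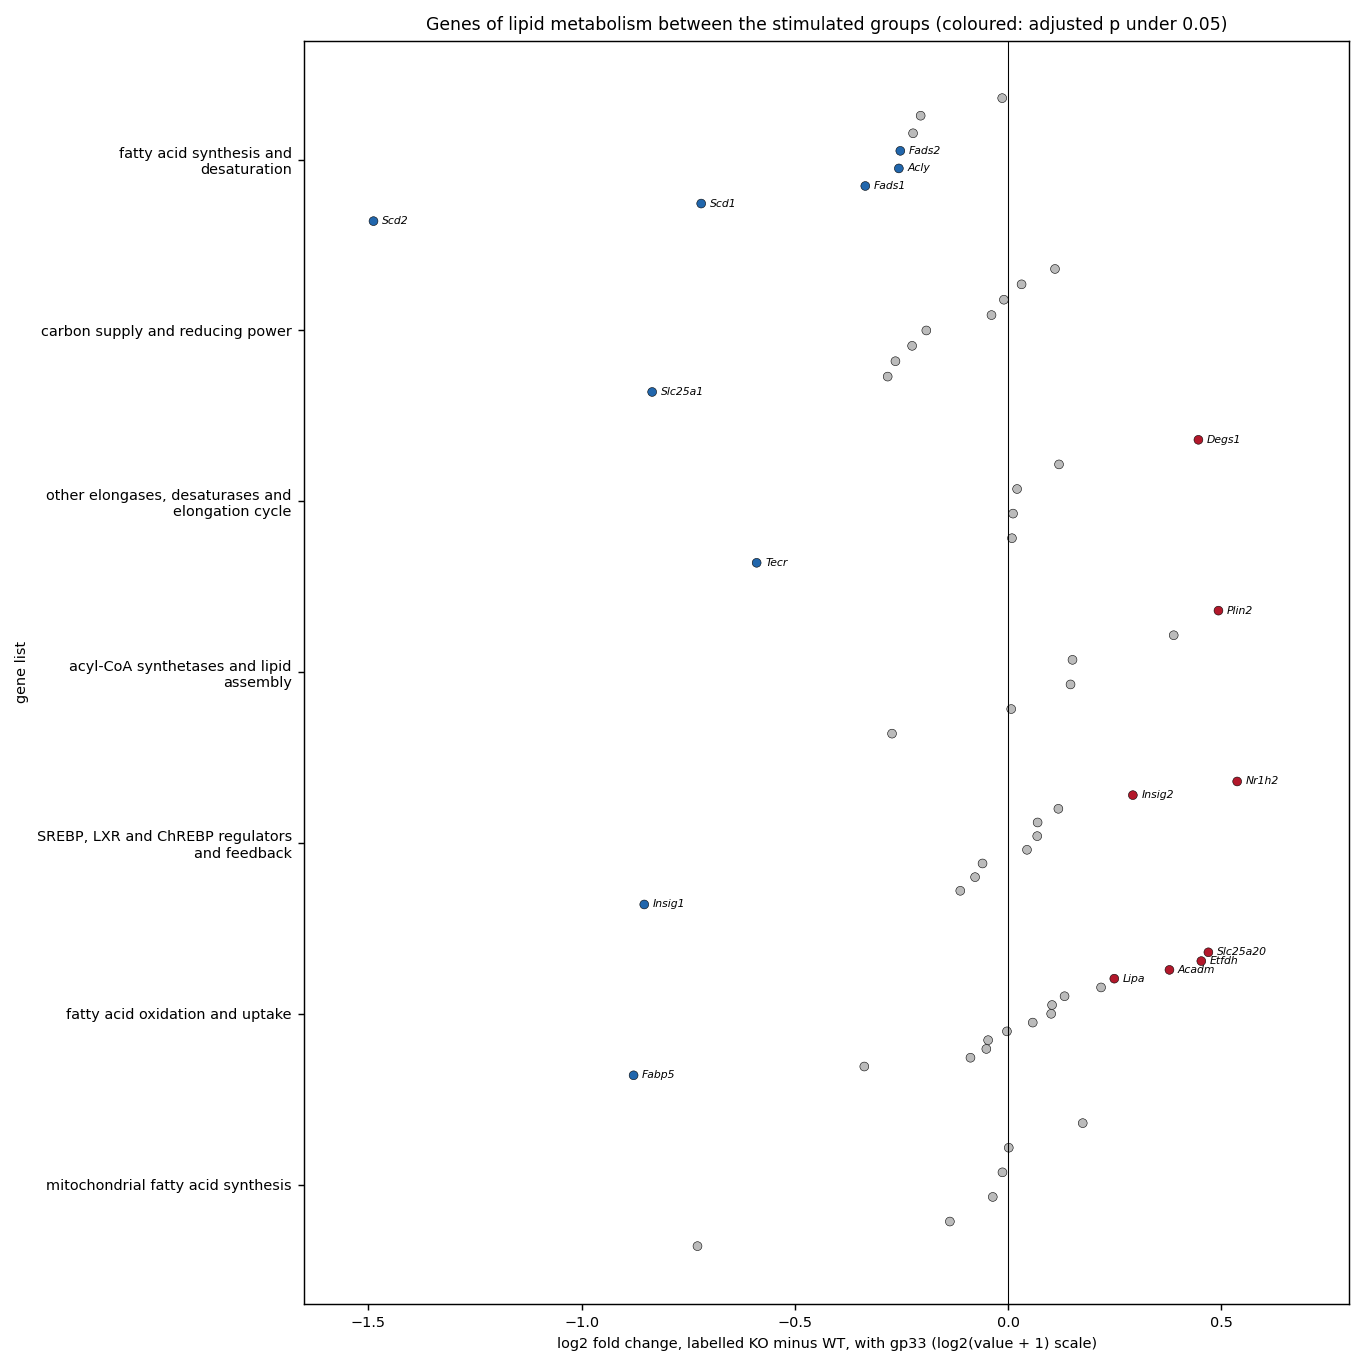
Log2 fold change between the gp33 libraries labelled KO and WT (horizontal, log2(value + 1) scale) of each gene, by list (vertical), with blue points for genes that fell, red for genes that rose and grey for the rest. All 8 synthesis and desaturation genes lie below 0, whereas the other lists have points on both sides, from Fabp5 at -0.88 to Nr1h2 at 0.54.

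The inhibitor in WT lowered 2 of 10 regulators, Srebf2 (-0.27, limma adjusted p = 0.0141) and Insig1 (-0.63, adjusted p = 0.0164), and raised 2 of 15 oxidation genes, where 5.15% of all genes tested fell and 3.31% rose. The oxidation genes raised were Echs1 (0.30) and Pnpla2, a triglyceride lipase (0.47). Their calls ended with the 2 groups fitted alone (limma adjusted p = 0.162 and 0.0931). None of the carbon supply, elongation, assembly or mitochondrial genes passed in WT, counts of 0 in each direction by limma. The Insig1 call was lost without WT gp33 replicate 1 (0.0869) or 2 (0.0646), as was that of Srebf2 (0.0691 and 0.0575), and both ended with the 2 groups fitted alone (0.0798 and 0.0999). In the libraries labelled KO 19.3% of all genes tested fell with inhibitor and 9.17% rose. Of the lists, 1 of 9 carbon supply genes, 1 of 6 elongation, 3 of 6 assembly, 2 of 10 regulators and 4 of 15 oxidation genes fell, and 1 elongation and 1 oxidation gene rose. Those that fell included Plin2 (-0.45, adjusted p = 0.00038), Agpat2, another acyltransferase (-0.47, adjusted p = 0.0016), and Insig2 (-0.53, adjusted p = 0.000228). Those that rose were Tecr (0.32, adjusted p = 0.0321) and, as in WT, Pnpla2, chosen after its values were seen (0.38, adjusted p = 0.0254). The Tecr call was lost without any of the 6 libraries compared (0.0604 to 0.105), and that of Pnpla2 without replicate 2 or 3 with gp33 or replicate 1 or 2 with inhibitor (0.0718 to 0.0966), and both with protein-coding genes rescaled alone (0.0519 and 0.068). The effect on Insig1 differed between genotypes by 0.85 (adjusted p = 0.0202), the same direction as for Scd2, but without replicate 2 labelled KO with gp33, replicate 2 or 3 labelled KO with inhibitor, or replicate 1 of WT with gp33 it did not pass (0.0508 to 0.0646). Insig1 was the 1 list gene called in this direction, beside 3.27% of the genes tested. In the other direction 2 of 10 regulators, 5 of 15 oxidation genes and 1 of 6 assembly genes were called, beside 6.47%. The assembly gene was Plin2 (-0.37, adjusted p = 0.0414), whose call ended with a pseudocount of 0.1 (0.0549).

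At rest, Plin2 was higher in the libraries labelled KO (0.86, limma adjusted p = 1.84e-06) and Lipt2, which attaches octanoate in lipoic acid synthesis, lower (-1.41, adjusted p = 0.0059). Of 15 oxidation and uptake genes 1 was higher and 2 lower at rest, beside 5.69% and 7.23% of all genes tested. Fabp5 was higher (1.31, adjusted p = 0.00204), and Acadm (-0.34, adjusted p = 0.00241) and Cpt2, a carnitine palmitoyltransferase (-0.40, adjusted p = 0.00293), were lower. These calls ended when the 2 groups were fitted alone (0.0674, 0.105 and 0.0736). The response of Acadm to gp33 differed between genotypes by 0.72, with means of 4.06 and 2.65 in WT and 3 and 3.74 in those labelled KO. Slc25a1 differed in its response by -0.78 (adjusted p = 0.0171).

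Promoter windows around the annotated start were taken from RefSeq (GRCm38.p6) for 5 of the 8 genes: Acly, Fasn, Acaca, Fads2 and Elovl6. Both strands were searched for a sterol element core (TCACNCCAC), an E-box (CACGTG), the NF-Y site CCAAT and the Sp1 box GGGCGG. The sterol core and the E-box were in 0 of the 5 windows, and in 1.24% and 7.15% of 32851 windows of the same length. CCAAT was in 2 of the 5, Acly and Fasn, and in 37.4% of all windows, and GGGCGG was in Acly and Fads2 and in 35.7% of all windows. The Acly and Fasn windows are shown because both genes rose with gp33 in WT and because they hold the CCAAT letters, on either strand, in capitals. Acaca and Fads2 also rose with gp33 in WT, and their windows lack these letters. A match is a description of these letters, not of binding. Acly lies on the minus strand at chr11:100527951-100528250 and Fasn on the minus strand at chr11:120824498-120824797, each printed 5′ to 3′ along its own strand.
Acly: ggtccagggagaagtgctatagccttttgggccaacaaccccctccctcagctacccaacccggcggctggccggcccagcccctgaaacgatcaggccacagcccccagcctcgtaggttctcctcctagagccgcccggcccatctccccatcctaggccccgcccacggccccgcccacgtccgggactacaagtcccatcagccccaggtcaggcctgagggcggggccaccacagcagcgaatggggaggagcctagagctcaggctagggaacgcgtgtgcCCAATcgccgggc
Fasn: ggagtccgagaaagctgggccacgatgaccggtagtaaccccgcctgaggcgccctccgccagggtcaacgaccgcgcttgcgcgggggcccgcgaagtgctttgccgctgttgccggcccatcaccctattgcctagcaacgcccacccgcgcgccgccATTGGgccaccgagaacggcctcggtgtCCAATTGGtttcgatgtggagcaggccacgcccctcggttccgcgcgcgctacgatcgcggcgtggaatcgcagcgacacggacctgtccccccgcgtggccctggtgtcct
The Acly window holds CCAAT 1 time, starting at position 38 downstream of the annotated start. The Fasn window holds it 3 times, with the last pair overlapping on opposite strands.

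Likeness to other genes was measured as Pearson's r of log2(value + 1) over the 18 libraries among 5795 protein-coding genes tested that are not members. These values share the group structure and are a description. Scd2 was most like Ntmt1 (0.977), Banf1 (0.976) and Stard4 (0.976), a sterol carrier. Fasn was most like Polr1d (0.971), Exosc4 (0.969) and Hirip3 (0.968). Acly was closest to Egln3 (0.96), Ralb (0.938) and Bdh1 (0.921), and Fads1 to H3c14 (0.931), Armcx6 (0.912) and Knop1 (0.912). Scd1 had the lowest likeness, with Mplkip (0.92), Arrdc2 (0.867) and Chrac1 (0.867). Among the members, Scd2 had r of 0.919 with Fads2, 0.91 with Fads1, 0.904 with Fasn and 0.838 with Acly, but -0.352 with Scd1 and -0.683 with Elovl6, while Scd1 and Elovl6 had 0.62.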

How the data were processed

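Per its name, the deposited table (23414 genes, 18 libraries) came from normalization with Partek by the authors. Its deposited values were read as log2(value + 1), although base, offset and method are not given in the sources used here. Libraries were stranded and polyA-selected per the labels' protocols. The submitters' processing notes name the builds GRCm 38 and 39 without their role, and neither aligner nor counter is stated there. Values are not whole reads, so depth is unknown and intervals for counting error are left out. Sequences came from RefSeq (GRCm38.p6) and GENCODE M21.

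Groups came from titles and treatment fields. Group means were fitted in R 4.3.3 (limma 3.58.1, statmod 1.5.0; trended, robust moderation; 12 residual degrees of freedom) to the 10257 genes that reached a normalized value of 1 in 3 libraries. Tests of 11 contrasts were 2-sided, with Benjamini-Hochberg adjustment over all genes of the fit and a threshold of 0.05. Alternatives were a pseudocount of 0.1, no filter, a minimum of 5, natural logs, protein-coding genes alone, the compared libraries alone, blocks, and leaving out each library. The steps were tested on simulated data. The members and lists were chosen with earlier results of these data known. The rule named every member, up to 3 genes per list and comparison by smallest p, 3 genes most like each tested member, and Pik3ip1. Python 3.11.15 and Biopython 1.88 were used for sequences.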

Additional observations from a re-analysis of the deposited data

Results flagged for a closer look

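For 7 results a response differed between the genotypes by a test of the difference itself, given as the change in the libraries labelled KO minus the change in WT on the log2(value + 1) scale, with limma adjusted p over all genes of the fit. For the response to gp33 these were Scd2 (-1.45, adjusted p = 8.34e-05), Fads2 (-0.26, adjusted p = 0.000243), Elovl6 (-0.41, adjusted p = 0.0188) and Acly (-0.23, adjusted p = 0.0409). For the effect of the inhibitor they were Scd2 (0.97, adjusted p = 0.00476), Scd1 (0.46, adjusted p = 0.0143) and Fasn (0.47, adjusted p = 0.0279). The starting levels of Scd1 fixed the sign of its difference, as given above. A pseudocount of 0.1 ended each of these inhibitor calls (limma adjusted p = 0.0744 for Scd2, 0.131 for Scd1 and 0.0714 for Fasn). For gp33, differences in the direction of these calls were called in 9.6% of the genes tested and 5.28% of all genes. For the inhibitor they were called in 3.27% of the genes tested. The Acly difference was lost without any of 15 libraries, and the Fasn difference without any of 7, as given above. The differences of Acly and Elovl6 were also lost with only their groups fitted (limma adjusted p = 0.0534 and 0.0549).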

How the results depend on the processing

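Counts here are of genes called by limma among all genes tested and, after "members", among the 5 tested genes of the 8. The comparisons are, in order, KO vs WT at rest (1326, members 1), with gp33 (2457, members 4) and with gp33 and inhibitor (474, members 1), gp33 vs rest in WT (7558, members 5) and in KO (7025, members 4), inhibitor vs none in WT (868, members 3) and in KO (2917, members 1), inhibited vs rest in WT (7439, members 5) and in KO (7229, members 4), and the genotype differences in the response to gp33 (2595, members 2) and in the inhibitor effect (999, members 3). With no filter the 8 members and all 23414 genes were tested, and the counts became 2546 and 3755 for KO vs WT at rest and with gp33, 12251 and 11430 (members 7 in KO) for gp33, 4389 for the inhibitor in KO, 11726 (members 8) and 11164 (members 7) for inhibited vs rest, and 4123 (members 4) for the difference in response to gp33. With a pseudocount of 0.1 as well, chosen after seeing the data, they became 2325 and 3815, members 2 with gp33 and inhibitor, 12434 and 11539 (members 7 in KO), members 1 for the inhibitor in WT, 4478 in KO, 11999 and 11533 (members 7 in KO), and members 4 and 0 for the differences. A minimum of 5 tested fewer genes, and Scd2 alone of the members could be called: 697 (members 0) and 1468 (members 1), 4267 and 4050 (members 1 each) for gp33, members 1 for the inhibitor in WT, 1736 in KO, 4257 and 4204 (members 1 each) for inhibited vs rest, and 1429 and 660 (members 1 each) for the differences. Fitting only the libraries compared gave 466, 3968 and 109 (members 0) between genotypes, 263 (members 1) and 4947 (members 2) for the inhibitor, members 3 for inhibited vs rest in WT, and members 1 for the difference in response to gp33. Protein-coding genes alone, rescaled, were fewer, with 4594 and 4528 for gp33, 4597 and 4462 for inhibited vs rest, members 2 between inhibited genotypes and members 1 for the difference in response to gp33. Scd2 in inhibited KO against KO with gp33 then lost its call (0.28, adjusted p = 0.0715), as with natural logs (members 0, 0.0505). A pseudocount of 0.1 left members 1 and 0 for the inhibitor in WT and KO, and 1 and 0 for the differences. The cause of the other changes was not tested.

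Between genotypes the replicate numbers did not pair the samples. Whether the letter pairs libraries within a genotype was not settled, and the main fit held no such block. Deviations from the group means correlated by -0.03 to 0.221 within genotypes, where libraries share a letter, with 4 of 18 pairs over 0.1 and 12 closest to their own number. Between genotypes they correlated by -0.368 to 0.083, with 0 of 27 over 0.1 and 2 closest to their own number. With the replicate number as a block, members were 0 between inhibited genotypes (Scd2, adjusted p = 0.059), 0 for the inhibitor in KO and 1 for the difference in response to gp33. With the letter as a block they were 0 and 1 for the last 2 of these, and the Fasn calls for the inhibitor in WT (-0.37, adjusted p = 0.0556) and for the difference in the inhibitor effect (0.47, 0.0664) also ended. Acaca in inhibited WT vs rest lost its call under both blocks (0.0597 and 0.0697). The letter could not be fitted between genotypes.

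Without each library in turn, the counts ranged over 965 to 2109 (members 1 to 1), 1480 to 3639 (3 to 5), 260 to 536 (0 to 2), 7049 to 8165 (5 to 5), 6389 to 7689 (3 to 4), 423 to 994 (2 to 4), 1928 to 4046 (0 to 2), 7010 to 7700 (4 to 5), 6671 to 7848 (4 to 4), 1881 to 3878 (1 to 2) and 501 to 1473 (2 to 3), in the order above. Over the 8 genes and 11 comparisons, leaving out a library kept the direction and call in 1481 cases, lost a call in 74, added 10 and turned the sign in 19. The other settings gave 685, 45, 11 and 5. Every turned sign was of an uncalled value near 0. At rest these were KO vs WT for Scd2 (-0.19 to 0.0643), Fasn (-0.0212 to 0.136), Acaca (-0.0201 to 0.0016), Fads1 (-0.199 to 0.02) and Fads2 (-7e-04 to 0.0125). With inhibitor they were Fads1 (-0.103 to 0.0197) and Elovl6 (-0.0165 to 0.0367) between genotypes, Fads2 in WT (-0.0129 to 0.0351), and Acaca (-0.0042 to 0.0037) and Elovl6 (-0.0064 to 0.035) in KO, both -0.0057 when rescaled. For the difference in response to gp33 it was Acaca (-0.0156 to 0.006), at 0.0035 with a pseudocount of 0.1, with or without the filter, and 5e-04 when rescaled.

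The unknown depth, 3 libraries a group and the offset of 1 limit what can be seen of the genes under the filter.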
